A study of Mus musculus with 12 samples.

Results

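Semaphorins, plexins, ephrins, Eph receptors, netrins, Slits and their receptors are cell guidance genes, and their mRNAs were followed in bone marrow-derived macrophages (BMDMs) treated with activin A. Members were the protein-coding genes of the deposited table whose symbols belong to the families Sema3 to Sema7, Plxn, Nrp, Efna, Efnb, Epha, Ephb, Slit, Robo, Ntn, Unc5, and Dpysl. The pattern found 46 of the 18376 genes listed, and no Robo gene was among them. *Unc50* matched the Unc5 pattern by its spelling and is not a netrin receptor, so that 45 guidance genes remain without it. Of the 46 genes, 34 had a mean of at least 5 normalized counts over the 12 libraries and were tested. The 12 genes below this level, with means between 0.667 and 4.83, were *Slit2*, *Sema5a*, *Sema3g*, *Plxnb1*, *Sema3b*, *Epha2*, *Dpysl3*, *Ephb3*, *Sema7a*, *Sema4g*, *Sema3c*, and *Epha4*.

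The macrophages were grown for 6 days from marrow of adult wild-type C57BL6/J mice, and every group received 50 ng/ml M-CSF, the growth factor that drives macrophage maturation. CTRL cells received nothing more, Act cells 50 ng/ml activin A, FST cells 250 ng/ml FST288, and Act + FST cells both at these doses, with 3 libraries per group. Activin A is a ligand of the TGF-β family, and FST288 is a form of follistatin that binds it and blocks its access to receptors. The labels do not say whether replicates came from separate mice, so that p-values measure the spread between these libraries, which may be technical, and in the study such cells served as a stand-in for testicular macrophages.

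Guidance proteins steer growing axons and also set the adhesion, movement, and retention of leukocytes. Semaphorins signal through plexins, with neuropilins as co-receptors for the secreted class 3. Ephrins on a cell surface bind Eph receptor kinases on neighbouring cells and signal into both cells. Netrins bind neogenin, DCC, and Unc5 receptors, and netrin-1 is known for retaining macrophages in inflamed tissue. Dpysl proteins carry semaphorin signals to the cytoskeleton inside the cell.

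The values are gene counts normalized by the authors and rounded, called normalized counts here, and they summed to between 5643708 and 5955400 per library. The highest value of any gene was between 5669 and 6378 in each library. All 8 macrophage markers examined, including *Adgre1*, *Csf1r*, *Cd68*, and *Mertk*, were present, and their sum ranged from 11414 to 12797 per library. Markers of other cell types had smaller sums, with 658 to 1188 for 7 neutrophil, 286 to 363 for 3 megakaryocyte, and 226 to 373 for 5 endothelial markers. The sums were 116 to 222 for 3 osteoclast and 26 to 83 for 4 dendritic cell markers. Neutrophil markers were not all low, as *Ngp* had a CTRL mean of 448 ± 34.2 and *S100a9* of 203 ± 17.0 (SD, n = 3). The macrophage marker *Itgam* had 578 ± 42.7, and the remaining neutrophil markers had at most 125 (*S100a8*). Markers of B cells, T cells, and mast cells summed to at most 24, and erythroid markers were not analysed here. In Act versus CTRL, 2 of the 7 neutrophil markers were lower (*Mpo*, limma adjusted p = 0.0092, and *Elane*, 0.025, genes of immature granulocytes), of the osteoclast markers *Acp5* was higher (0.0018) and *Ctsk* lower (6.7e-05), 1 of 3 tested endothelial markers was higher (*Pecam1*), and 1 of 4 tested stromal markers was lower (*Cxcl12*). In Act versus Act + FST, the stromal marker *Pdgfrb* was also higher and the endothelial marker *Kdr* lower. *Pdgfrb* had means of 25.0 ± 5.20 normalized counts in CTRL and 45.0 ± 5.29 in Act (SD, n = 3). With the replicate number as a block, 2 stromal markers were higher and 1 lower against CTRL, and 1 endothelial marker was higher and 1 lower. The part of such cells in the results was not tested. The 9 stromal markers in the table summed to between 62 and 101 in CTRL, 74 and 266 in Act, 52 and 154 in Act + FST, and 53 and 169 in FST. The top of each stromal range came from replicate 1, which held 22 (CTRL), 83 (Act), 28 (Act + FST), and 35 (FST) normalized counts of *Col1a1*, against 2 to 8 in the other libraries, while the fibroblast marker *Pdgfra* was at 0 in 10 of 12 libraries. Bulk libraries do not tell fewer cells of a type from less RNA per cell.

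In these BMDMs, the guidance genes with most mRNA were receptors. The 7 genes with a mean above 1000, *Nrp1*, *Nrp2*, *Plxna1*, *Plxnb2*, *Plxnc1*, *Plxnd1*, and *Sema4d*, held 76.2% of all normalized counts of the 46 genes. Together, the 46 genes took between 0.364% and 0.391% of each library. Per kb of exon and averaged over the 12 libraries, *Plxnb2*, a receptor of class 4 semaphorins, stood highest at 395 normalized counts, followed by 363 for *Plxnd1* and 263 for *Plxna1*. The median over all 18359 genes with a known exonic length was 35.7 per kb, and the highest value of any gene was 883. Among ligands, *Sema4d* led with 230 normalized counts per kb, followed by *Sema4a* with 157, *Slit1* with 102, and *Sema4b* with 86.7. Secreted class 3 semaphorins and EphA receptors were near the detection level, with at most 0.994 (*Sema3f*) and 0.632 (*Epha7*) normalized counts per kb.

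**Figure D1:**
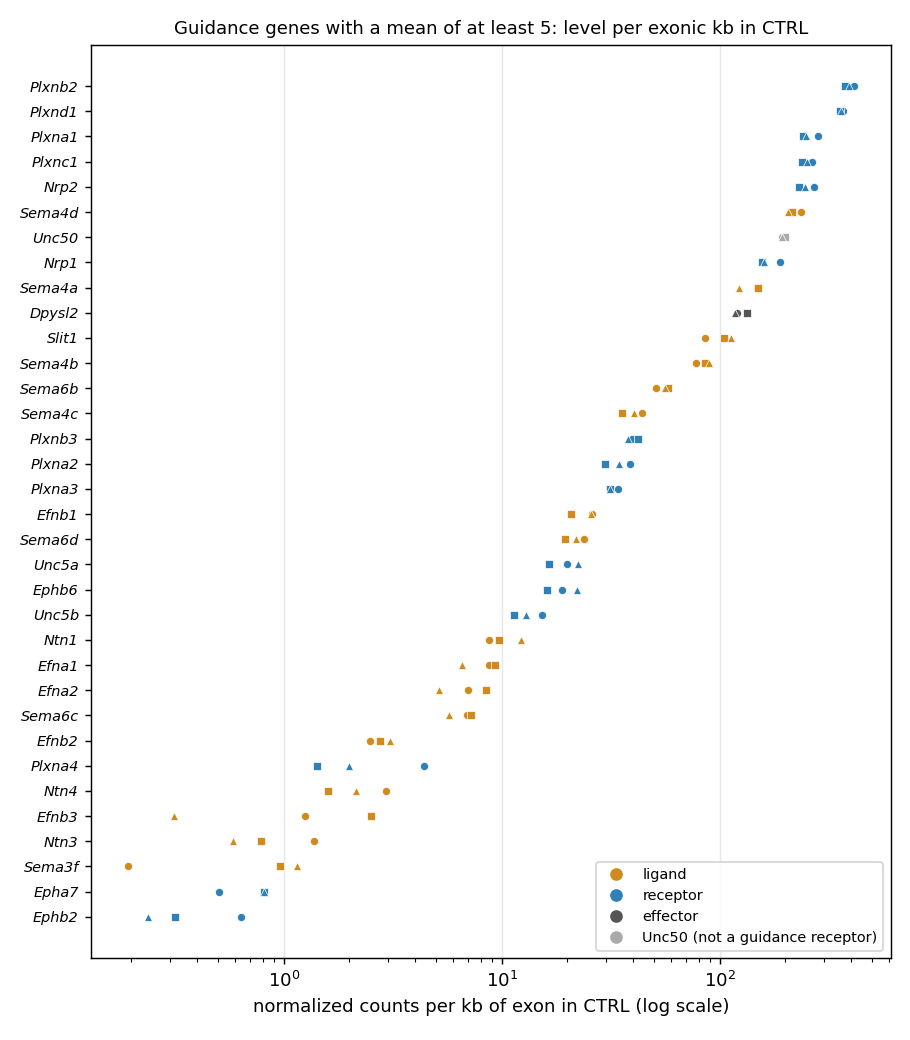
Level of the 34 tested guidance genes in CTRL, in normalized counts per kb of exon on a log axis, with a marker for each of the 3 CTRL libraries (circle, square, triangle: replicates 1, 2, 3) and colors for ligands, receptors, and the Dpysl effector. *Plxnb2*, *Plxnd1*, *Plxna1*, *Plxnc1*, *Nrp2*, and *Sema4d* lie at the top, and *Sema3f*, *Epha7*, and *Ephb2* lie at the bottom. The plexins *Plxnb3*, *Plxna2*, and *Plxna3* lie below *Sema4a* and *Slit1*, and *Plxna4* lies far below them.

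Activin A raised class 4 semaphorins and *Ntn4* and lowered *Ntn1* and *Unc5a*, while the abundant plexins and neuropilins differed by little. *Unc5b*, the other netrin receptor gene of the 34, had a limma adjusted p of 0.085 in Act versus CTRL. In Act versus CTRL, limma called 6 of the 34 guidance genes higher (17.6%) and 4 lower (11.8%) at an adjusted p of at most 0.05, where 10.3% and 9.97% of all 14318 genes were called. The share of lower genes was thus near that of all genes. With the replicate number as a block, 9 were higher and 7 lower (16.3% and 15.2% of all genes). DEGs, which in addition changed at least 2-fold, were *Ntn4* among the higher genes (1 of 34, against 2.58% of all genes) and *Ntn1*, *Unc5a*, and *Ephb6* among the lower genes (3 of 34, against 3.09%). In Act versus Act + FST, 8 guidance genes were higher and 3 lower (11.1% and 10.2% of all genes), or 9 and 6 with the block (17.1% and 15.4%). DEGs there were *Ntn4* and *Plxna4*, higher in Act (2.72% of all genes), and *Ntn1* and *Unc5a*, lower in Act (3.11%). Values did not overlap between Act and CTRL for 9 higher and 7 lower genes of the 34 (18% and 17.6% of all genes), and between Act and Act + FST for 10 and 4 (17.4% and 16.7%). Both comparisons use the same 3 Act libraries. Signed log2 fold changes of the 34 genes had medians of 0.02 against CTRL and −0.00 against Act + FST, beside medians of 0.00 over all genes.

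**Figure D2:**
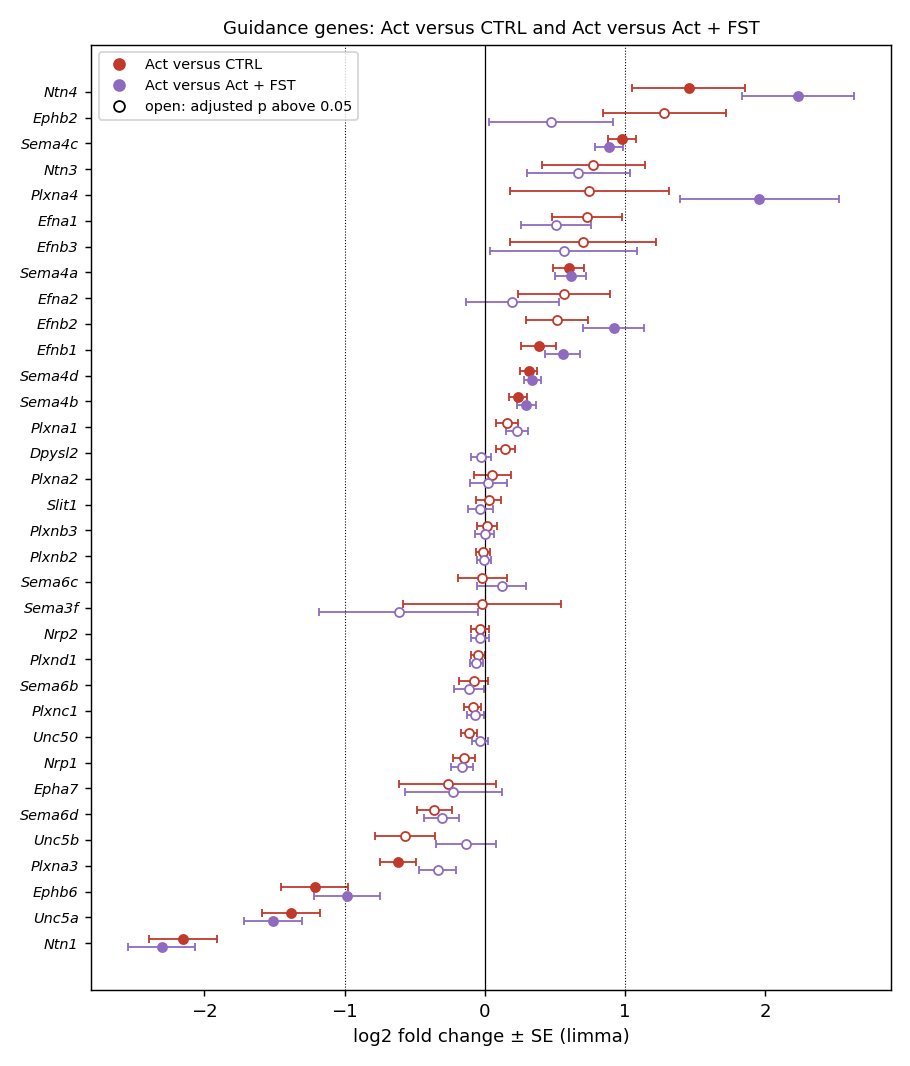
Log2 fold change ± SE from limma for the 34 tested guidance genes in Act versus CTRL (red) and Act versus Act + FST (purple), with filled markers for an adjusted p of at most 0.05 and dotted lines at a 2-fold change. *Ntn4* and *Sema4c* lie on the right in both comparisons, *Ntn1*, *Unc5a*, and *Ephb6* on the left, and *Plxnb2*, *Plxnd1*, and *Nrp2* near 0.

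Act + FST and FST did not differ detectably from CTRL for any guidance gene by limma's adjusted p. Of the 34 genes, 0 were called in Act + FST versus CTRL (0% of all genes), where at an unadjusted p under 0.05 there was 1 higher gene (*Dpysl2*, log2 fold change 0.17) and 1 lower gene (*Plxna3*, −0.28). The block also called 0 guidance genes (0.279% of all genes in each direction), with 2 higher and 5 lower unadjusted. In FST versus CTRL, 0 guidance genes were called (0% of all genes), with 0 at an unadjusted p under 0.05. The block called 0 there too, with 1 higher and 1 lower unadjusted. Sign aside, the log2 fold change of the 34 genes had a median of 0.34 in Act versus CTRL, 0.10 in Act + FST versus CTRL, and 0.04 in FST versus CTRL, against 0.14, 0.06, and 0.05 over all genes. A limma test of whether the effect of activin A differed without and with FST288 called 3 guidance genes with a higher effect without FST288 (3.99% of all genes) and 2 with a lower effect (2.75%), or 7 and 3 with the block (9.36% and 6.96%).

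The promoter windows of the rising *Sema4c* and *Ntn4* and the falling *Unc5a* and *Ephb6* are shown as examples. These genes passed in both comparisons with activin A, and RefSeq windows were at hand for them. *Sema4a*, *Sema4b*, *Sema4d*, and *Efnb1* also passed in both, and their windows are not shown. RefSeq (GRCm38.p6) windows of 250 bases before to 50 after the gene start were found for 37 of the 46 genes (its start equals that of the table for *Unc5a* and lies upstream of it for *Sema4c* and downstream for *Ntn4* and *Ephb6*), and *Ntn1* was not among these. The sequences run 5′ to 3′ on the strand of the gene, and capitals mark CAGAC or its reverse complement GTCTG, the core of a motif bound by SMAD proteins, which carry activin signals. The windows are chr1:36558332-36558631 on the minus strand for *Sema4c* (the upstream of its windows), chr10:93640799-93641098 on the plus strand for *Ntn4*, chr13:54949161-54949460 on the plus strand for *Unc5a*, and chr6:41605261-41605560 on the plus strand for *Ephb6*.
Sema4c: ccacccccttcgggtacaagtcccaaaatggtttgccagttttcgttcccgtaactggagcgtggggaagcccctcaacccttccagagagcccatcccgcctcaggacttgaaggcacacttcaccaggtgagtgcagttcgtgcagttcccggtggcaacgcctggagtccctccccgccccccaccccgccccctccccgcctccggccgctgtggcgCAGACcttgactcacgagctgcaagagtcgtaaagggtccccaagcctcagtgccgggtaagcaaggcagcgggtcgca
Ntn4: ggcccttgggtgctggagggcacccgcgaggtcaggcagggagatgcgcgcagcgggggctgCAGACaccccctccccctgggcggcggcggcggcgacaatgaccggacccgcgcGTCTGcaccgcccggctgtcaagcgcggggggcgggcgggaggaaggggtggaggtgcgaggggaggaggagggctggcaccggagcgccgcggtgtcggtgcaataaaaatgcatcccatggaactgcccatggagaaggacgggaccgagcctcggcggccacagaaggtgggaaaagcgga
Unc5a: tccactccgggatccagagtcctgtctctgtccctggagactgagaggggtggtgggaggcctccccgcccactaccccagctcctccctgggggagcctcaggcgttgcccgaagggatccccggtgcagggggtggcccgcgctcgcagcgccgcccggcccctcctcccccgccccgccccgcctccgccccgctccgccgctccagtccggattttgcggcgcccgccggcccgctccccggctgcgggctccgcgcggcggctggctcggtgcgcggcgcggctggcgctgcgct
Ephb6: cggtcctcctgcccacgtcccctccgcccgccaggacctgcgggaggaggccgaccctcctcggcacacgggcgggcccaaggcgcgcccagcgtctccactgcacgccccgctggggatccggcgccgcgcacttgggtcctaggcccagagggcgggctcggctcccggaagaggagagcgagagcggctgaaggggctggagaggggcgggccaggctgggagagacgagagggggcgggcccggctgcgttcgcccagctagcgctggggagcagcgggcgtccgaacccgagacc
The *Sema4c* window held 1 match and the *Ntn4* window 2, while the *Unc5a* and *Ephb6* windows held 0. Of all 32851 windows in the table, 49.6% held CAGAC or GTCTG, so that a match of these letters is common, and the palindrome GTCTAGAC, which contains neither shorter motif, was in none of the 4 windows and in 0.213% of all. All 4 windows were rich in G and C (64.3% in *Sema4c*, 72.0% in *Ntn4*, 78.3% in *Unc5a*, and 76.3% in *Ephb6*). A match is a description of the letters and not a binding site.

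Class 4 semaphorins are membrane-bound ligands, and all 4 tested members were higher in Act than in CTRL and than in Act + FST. *Sema4c* (ENSMUSG00000026121, chromosome 1 from 36548639 to 36558349 of mm10), a ligand of plexin B2, changed most. Its libraries held 202, 163, and 186 normalized counts (CTRL), 349, 349, and 387 (Act), 204, 187, and 195 (Act + FST), and 183, 154, and 199 (FST). Every Act library was above every other library. The means were 184 ± 19.6 (SD, n = 3) in CTRL and 362 ± 21.9 in Act, a log2 fold change of 0.98 ± 0.10 (SE, limma adjusted p = 2.8e-05) in Act versus CTRL and 0.88 ± 0.10 (SE, adjusted p = 6.0e-05) in Act versus Act + FST. The exons of *Sema4c* share 7.27% of their bases with *D430040D24Rik* on the opposite strand, whose mean rose from 6.67 ± 1.53 normalized counts in CTRL to 25.3 ± 6.81 in Act (limma adjusted p = 7.5e-04). The strand setting of the counting is not given in the sources used here. The part of this neighbour in the result was not tested.

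*Sema4a* (ENSMUSG00000028064, chromosome 3 from 88435959 to 88461182) encodes a semaphorin of antigen-presenting cells that acts on T cells. It had 805, 812, and 665 normalized counts (CTRL), 1121, 1142, and 1180 (Act), 791, 864, and 617 (Act + FST), and 748, 778, and 669 (FST). The Act values lay above all others and close together. Log2 fold changes were 0.60 ± 0.11 (SE, limma adjusted p = 0.0021) in Act versus CTRL and 0.61 ± 0.11 (SE, adjusted p = 0.0018) in Act versus Act + FST. *Sema4d* (ENSMUSG00000021451, chromosome 13 from 51685529 to 51793747), the ligand also called CD100, is shed from the surface and binds B plexins. Its normalized counts were 1822, 1644, and 1577 (CTRL), 2172, 2016, and 2065 (Act), 1726, 1671, and 1550 (Act + FST), and 1734, 1622, and 1584 (FST). Here the difference was smaller and still clear of the spread, with log2 fold changes of 0.31 ± 0.06 (SE, limma adjusted p = 0.0032) and 0.34 ± 0.06 (SE, adjusted p = 0.0018). *Sema4b* (ENSMUSG00000030539) had means of 477 ± 32.3 with CTRL, 561 ± 23.4 with Act, 457 ± 28.7 with Act + FST, and 463 ± 32.0 with FST (SD, n = 3).

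*Sema4b* differed by a log2 fold change of 0.24 in Act versus CTRL (standard error 0.07, limma adjusted p = 0.025) and 0.30 in Act versus Act + FST (adjusted p = 0.0071). Its call against CTRL was lost without CTRL replicate 1 (adjusted p = 0.091), CTRL replicate 2 (0.056), Act replicate 1 (0.080), or Act replicate 2 (0.088), and with quantile normalization (0.053). The fifth class 4 member, *Sema4g*, had 2 to 10 normalized counts in each library and was not tested.

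**Figure D3:**
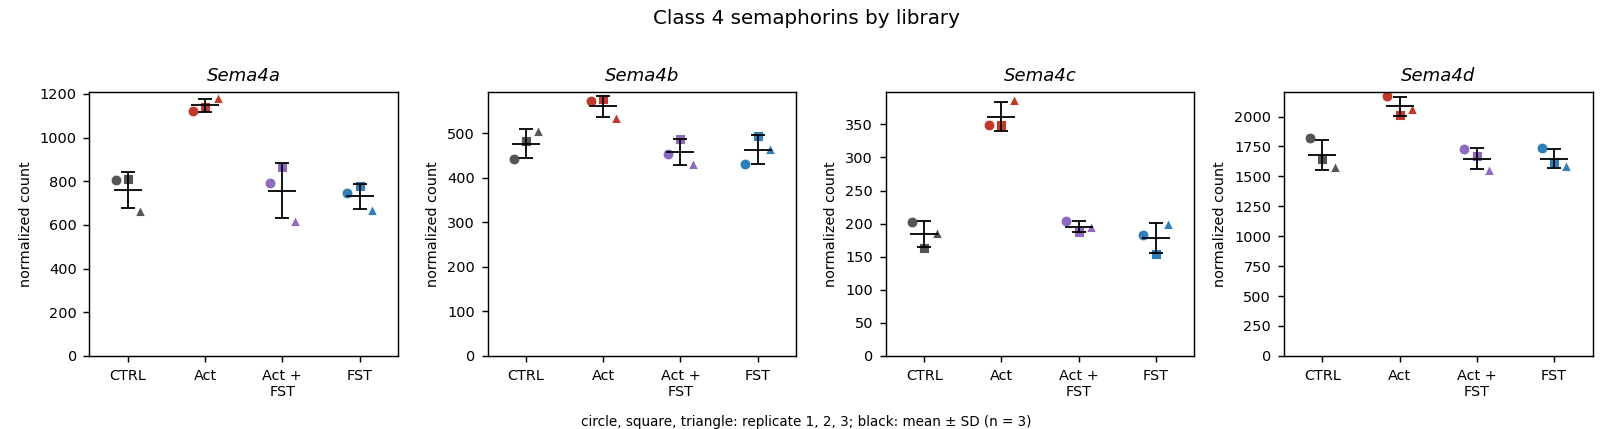
Normalized counts of the 4 tested class 4 semaphorins by library, on axes that start at 0, with the replicate given by the marker and the mean ± SD (n = 3) in black. For each gene the 3 Act libraries lie above all 9 others.

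No other tested semaphorin passed in the model of all 12 libraries without the replicate block. *Sema6d*, a transmembrane ligand of plexin A1, had 252, 207, and 231 normalized counts (CTRL), 178, 186, and 171 (Act), 242, 253, and 176 (Act + FST), and 215, 244, and 204 (FST). Act values were below all CTRL and FST values, and Act + FST replicate 3 fell among them. Act and CTRL differed by −0.36 ± 0.12 on the log2 scale (SE), short of the threshold in limma (adjusted p = 0.060) but past it with the block (0.015), with only the 6 libraries compared (0.019), and without Act + FST replicate 2 (0.049) or 3 (0.010). Against Act + FST it was −0.31 (adjusted p = 0.10, with the block 0.032, and 0.0056 without Act + FST replicate 3). *Sema6b* had means of 218 ± 13.6 (SD, n = 3) in CTRL and 206 ± 13.7 in Act, a log2 fold change of −0.08 with a 95% confidence interval from −0.31 to 0.15. *Sema6c* held 31 to 43 normalized counts in every library. *Sema3f* had a mean of 4.00 ± 2.65 in CTRL and 3.33 ± 0.58 in Act, at a depth where only large changes could be seen. *Sema7a*, a membrane-anchored ligand of plexin C1, and *Sema5a* were below the level tested, at means of 3.92 and 0.833 over the 12 libraries.

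The abundant semaphorin receptors differed by little between Act and CTRL. For *Nrp1*, *Nrp2*, *Plxna1*, *Plxnb2*, *Plxnc1*, and *Plxnd1*, log2 fold changes in Act versus CTRL lay between −0.15 and 0.16, and their 95% confidence intervals reached from −0.32 to 0.33. *Plxnb2*, the receptor for *Sema4c* and *Sema4d* products, had means of 3047 ± 151 (CTRL) and 3020 ± 140 (Act) normalized counts (log2 fold change −0.01, interval −0.12 to 0.10). *Plxnd1* had 2646 ± 51.4 and 2557 ± 110, with an interval of −0.16 to 0.06, and *Plxnc1* had 2104 ± 114 and 1983 ± 164, with an interval of −0.22 to 0.05. *Nrp2* had 2963 ± 237 and 2894 ± 193, with an interval of −0.17 to 0.10. All 6 genes lie in the upper range of a table in which no gene exceeded 6378 normalized counts or, on average, 883 per kb. For scale, the 8 macrophage markers had CTRL means between 578 (*Itgam*) and 3346 (*Csf1r*), with *Lyz2* at 1160 and *Cd68* at 1086. Whether values are compressed at this end, which would also make fold changes smaller, was not tested.

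*Plxna1* and *Nrp1* passed the threshold only in other fits. *Plxna1* had 2330 ± 199 normalized counts with CTRL, 2600 ± 169 with Act, 2218 ± 175 with Act + FST, and 2373 ± 157 with FST (SD, n = 3). Log2 fold changes in Act were 0.16 against CTRL (limma adjusted p = 0.18, with the block 0.0012, with quantile normalization 0.040) and 0.23 against Act + FST (adjusted p = 0.053, with the block 5.6e-05, with quantile normalization 0.015, and 0.033 without CTRL replicate 1 or 0.026 without Act + FST replicate 1). *Plxna1* shares 10.7% of its exonic bases with *Gm26811* on the opposite strand. *Nrp1*, a co-receptor for class 3 semaphorins and VEGF, had a log2 fold change of −0.15 in Act versus CTRL (limma adjusted p = 0.22, with the block 0.026, with quantile normalization 0.036) and −0.17 against Act + FST (0.17, with the block 0.014, with quantile normalization 0.011).

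Among less abundant A plexins, *Plxna3* (ENSMUSG00000031398, X chromosome from 74329066 to 74344689) was lower with activin A. It had 268, 247, and 247 normalized counts (CTRL), 172, 176, and 148 (Act), 243, 229, and 163 (Act + FST), and 296, 253, and 255 (FST). Act values did not overlap CTRL or FST, and Act + FST replicate 3 fell into the Act range. Changes on the log2 scale were −0.62 against CTRL (standard error 0.13, limma adjusted p = 0.0048) and −0.34 against Act + FST (adjusted p = 0.087, with the block 0.0095, and 0.0030 without Act + FST replicate 3). *Plxna4* (ENSMUSG00000029765, chromosome 6 from 32144268 to 32588192) had 62, 20, and 28 normalized counts (CTRL), 63, 66, and 41 (Act), 31, 15, and 5 (Act + FST), and 33, 15, and 13 (FST). CTRL replicate 1 lay among the Act values, and replicate 1 was the highest in CTRL, Act + FST, and FST, the same libraries that held most *Col1a1*, and the part of stromal cells in this was not tested.

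*Plxna4* was higher in Act than in Act + FST, with a log2 fold change of 1.96 ± 0.57 (SE, limma adjusted p = 0.026). Against CTRL it was 0.74 ± 0.57 (SE, adjusted p = 0.42). The call against Act + FST was lost without Act replicate 1 (adjusted p = 0.077), Act replicate 2 (0.085), Act + FST replicate 2 (0.052), or Act + FST replicate 3 (0.0997). On the opposite strand inside *Plxna4*, the antisense gene *Plxna4os1*, which matched the pattern and was left out as it is not protein-coding, had 119 ± 5.51 normalized counts in CTRL and 193 ± 1.15 in Act (SD, n = 3, limma adjusted p = 0.0056). *Plxna4* shares no exonic base with *Plxna4os1* and 0.78% of its exonic bases with *Plxna4os3*. *Plxna2*, *Plxnb3*, and *Plxnb2* did not pass in either comparison or with the block.

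The largest fall among guidance genes was that of *Ntn1* (ENSMUSG00000020902, chromosome 11 from 68209364 to 68400823), which encodes netrin-1. Its libraries held 55, 61, and 77 normalized counts (CTRL), 19, 10, and 13 (Act), 82, 55, and 79 (Act + FST), and 66, 55, and 78 (FST). No Act library came near the others. The mean fell from 64.3 ± 11.4 (SD, n = 3) to 14.0 ± 4.58, with a log2 fold change of −2.15 ± 0.24 (SE, limma adjusted p = 5.8e-05) against CTRL and −2.31 ± 0.24 (SE, adjusted p = 3.4e-05) against Act + FST. *Unc5a* (ENSMUSG00000025876, chromosome 13 from 54949411 to 55006018), a netrin receptor that mediates repulsion, had 83, 69, and 93 normalized counts (CTRL), 40, 32, and 22 (Act), 109, 73, and 87 (Act + FST), and 99, 91, and 97 (FST). Again all Act values were the lowest. Log2 fold changes were −1.38 ± 0.21 (SE, limma adjusted p = 5.0e-04) against CTRL and −1.51 ± 0.21 (SE, adjusted p = 2.7e-04) against Act + FST. *Unc5a* shares 0.816% of its exonic bases with *Hk3* on the opposite strand, an abundant hexokinase gene that fell from 1301 ± 20.1 to 875 ± 59.2 normalized counts (limma adjusted p = 1.8e-05), and the part of its reads in *Unc5a* was not tested.

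*Unc5b*, the netrin-1 receptor best known from macrophages, did not pass in the model of all 12 libraries without the block. It had 96, 71, and 81 normalized counts (CTRL), 64, 59, and 44 (Act), 83, 62, and 43 (Act + FST), and 81, 81, and 77 (FST). Act did not overlap CTRL but overlapped Act + FST. Against CTRL the log2 change was −0.57 ± 0.22 (SE, limma adjusted p = 0.085), and it passed with the block (0.015) and without Act + FST replicate 1 (0.046) or 3 (0.032). Against Act + FST it was −0.14 (adjusted p = 0.72).

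*Ntn4* (ENSMUSG00000020019, chromosome 10 from 93640681 to 93747207) encodes netrin-4, a basement membrane netrin, and moved the other way at low counts. It had 11, 6, and 8 normalized counts (CTRL), 26, 24, and 22 (Act), 9, 4, and 2 (Act + FST), and 11, 8, and 6 (FST). Each Act library held at least 22 and no other library more than 11. On the log2 scale the change was 1.45 ± 0.40 (SE, limma adjusted p = 0.022) against CTRL and 2.23 ± 0.40 (SE, adjusted p = 0.0018) against Act + FST. The call against CTRL was lost without CTRL replicate 2 (adjusted p = 0.085), CTRL replicate 3 (0.062), or Act replicate 1 (0.068), 2 (0.062), or 3 (0.053). *Ntn3* had means of 4.67 ± 2.08 in CTRL and 8.33 ± 1.15 in Act and did not pass. *Unc50*, included by its spelling, had 309 ± 4.62 and 285 ± 14.4 (limma adjusted p = 0.19).

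Genes of other netrin and Unc5 partners moved in both directions, and those given here were picked from the partner list after their values were seen. *Neo1*, which encodes the netrin and RGM receptor neogenin, held 252, 194, and 411 normalized counts (CTRL) and 148, 127, and 141 (Act) (log2 fold change −0.97, limma adjusted p = 0.019). *Flrt2*, whose product binds Unc5 receptors, held 397, 236, and 213 (CTRL) and 61, 40, and 43 (Act) (log2 fold change −2.50, adjusted p = 2.7e-04). In both genes Act and CTRL did not overlap, and the CTRL libraries differed among themselves by more than the Act libraries did. *Rgmb*, a ligand of neogenin, was higher, at 339 ± 8.74 (CTRL) and 410 ± 16.6 (Act) normalized counts (log2 fold change 0.27, limma adjusted p = 0.0074). *Flrt3*, a relative of *Flrt2*, was below the level tested, with 3, 1, and 0 (CTRL) and 9, 6, and 4 (Act).

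**Figure D4:**
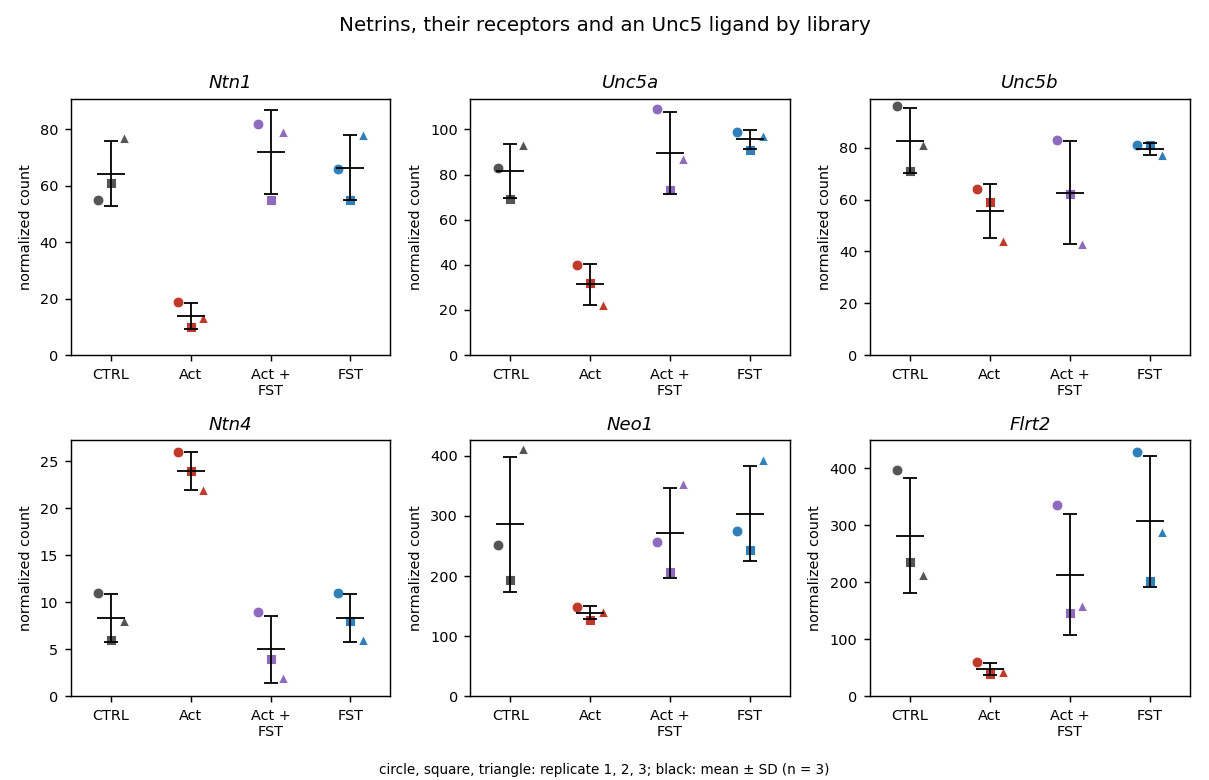
Normalized counts of *Ntn1*, *Unc5a*, *Unc5b*, *Ntn4*, *Neo1*, and *Flrt2* by library, on axes that start at 0, with the replicate given by the marker and the mean ± SD (n = 3) in black. *Ntn1*, *Unc5a*, *Neo1*, and *Flrt2* are lowest in the 3 Act libraries, *Ntn4* is highest there, and *Unc5b* overlaps between Act and Act + FST.

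Among ephrins and Eph receptors, *Efnb1* was higher and *Ephb6* lower with activin A. *Efnb1* (ENSMUSG00000031217, X chromosome from 99136130 to 99148991), a transmembrane ephrin, had 90, 72, and 89 normalized counts (CTRL), 111, 107, and 109 (Act), 87, 67, and 69 (Act + FST), and 99, 95, and 88 (FST). The Act libraries were the highest and differed by at most 4 normalized counts. Log2 fold changes were 0.38 ± 0.13 (SE, limma adjusted p = 0.048) against CTRL and 0.56 ± 0.13 (SE, adjusted p = 0.0070) against Act + FST. Against CTRL the call was lost in 8 of the 12 fits that left out a library, namely without CTRL replicate 2 (adjusted p = 0.18) or 3 (0.069), without Act replicate 1 (0.12), 2 (0.097), or 3 (0.11), and without FST replicate 1 (0.059), 2 (0.063), or 3 (0.060). It was also lost with only the 6 libraries compared (0.053).

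*Efnb2*, a transmembrane ephrin known from blood vessels, had 17, 19, and 21 normalized counts (CTRL), 30, 23, and 30 (Act), 18, 14, and 11 (Act + FST), and 19, 19, and 18 (FST). It was higher in Act than in Act + FST, with a log2 fold change of 0.92 ± 0.22 (SE, limma adjusted p = 0.0092). Against CTRL it was 0.51 and did not pass (adjusted p = 0.12). *Efna1*, a lipid-anchored ephrin, had means of 15.0 ± 2.65 with CTRL, 25.3 ± 2.08 with Act, 17.7 ± 3.21 with Act + FST, and 15.7 ± 4.16 with FST (SD, n = 3). Its log2 fold change against CTRL was 0.73 (limma adjusted p = 0.058), and it passed with the block (0.046), with quantile normalization (0.033), with a pseudocount of 5 (0.045), and without FST replicate 2 (0.039). Against Act + FST it was 0.51 (adjusted p = 0.18). *Efna2* had 14.7 ± 3.51 in CTRL and 22.0 ± 4.36 in Act, but FST replicate 1 held 38, the highest value of all libraries, and no comparison passed. Of the 5 ephrins tested, limma called 1 higher against CTRL and 2 against Act + FST, with none lower. Over all genes, 10.3% and 11.1% were called higher and 9.97% and 10.2% lower, and 5 genes are too few to tell such shares apart.

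*Ephb6* (ENSMUSG00000029869, chromosome 6 from 41605482 to 41620509), an Eph receptor that lacks kinase activity, was the Eph receptor with most mRNA and fell. Its normalized counts were 71, 61, and 84 (CTRL), 31, 24, and 37 (Act), 71, 50, and 63 (Act + FST), and 90, 58, and 108 (FST). All Act values were under all others. Its log2 fold change came to −1.21 ± 0.24 (SE, limma adjusted p = 0.0031) against CTRL and −0.98 ± 0.24 (SE, adjusted p = 0.010) against Act + FST. *Ephb2*, a receptor kinase for B ephrins, had 8, 4, and 3 normalized counts (CTRL), 21, 8, and 12 (Act), 10, 10, and 7 (Act + FST), and 12, 4, and 7 (FST). Act replicates 2 and 3 lay within the range of the other groups. Against CTRL the log2 change was 1.28 ± 0.44 (SE, limma adjusted p = 0.059), and it passed with the block (0.0092), with quantile normalization (0.044), and without CTRL replicate 1 (0.030), Act replicate 2 (0.043), or FST replicate 1 (0.049) or 2 (0.048).

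*Ephb3*, a receptor kinase for B ephrins, was below the level tested and was singled out after its values were seen. It had 0, 0, and 1 normalized counts (CTRL), 12, 8, and 16 (Act), 1, 0, and 1 (Act + FST), and 2, 0, and 1 (FST). Each Act library held at least 8 and no other library more than 2. Taking the rounded values as counts, the sum of 36 in Act against 1 in CTRL gave a ratio of 36.0 with an exact 95% interval of 6.06 to 1460, and the sum of 2 in Act + FST gave 18.0 (4.63 to 154), which cover counting error only. Without the filter on the mean, which adds 12 guidance genes and raises the number of genes tested to 18376, limma gave an adjusted p of 6.3e-04 against CTRL and 0.0013 against Act + FST for *Ephb3*. None of the other 11 low genes passed there, and *Epha4* came nearest (13, 2, and 10 in Act against 1, 1, and 4 in CTRL, adjusted p = 0.085). *Epha7*, the EphA receptor with most mRNA, had 7.0 ± 1.73 (SD, n = 3) in CTRL and 6.00 ± 3.00 in Act.

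**Figure D5:**
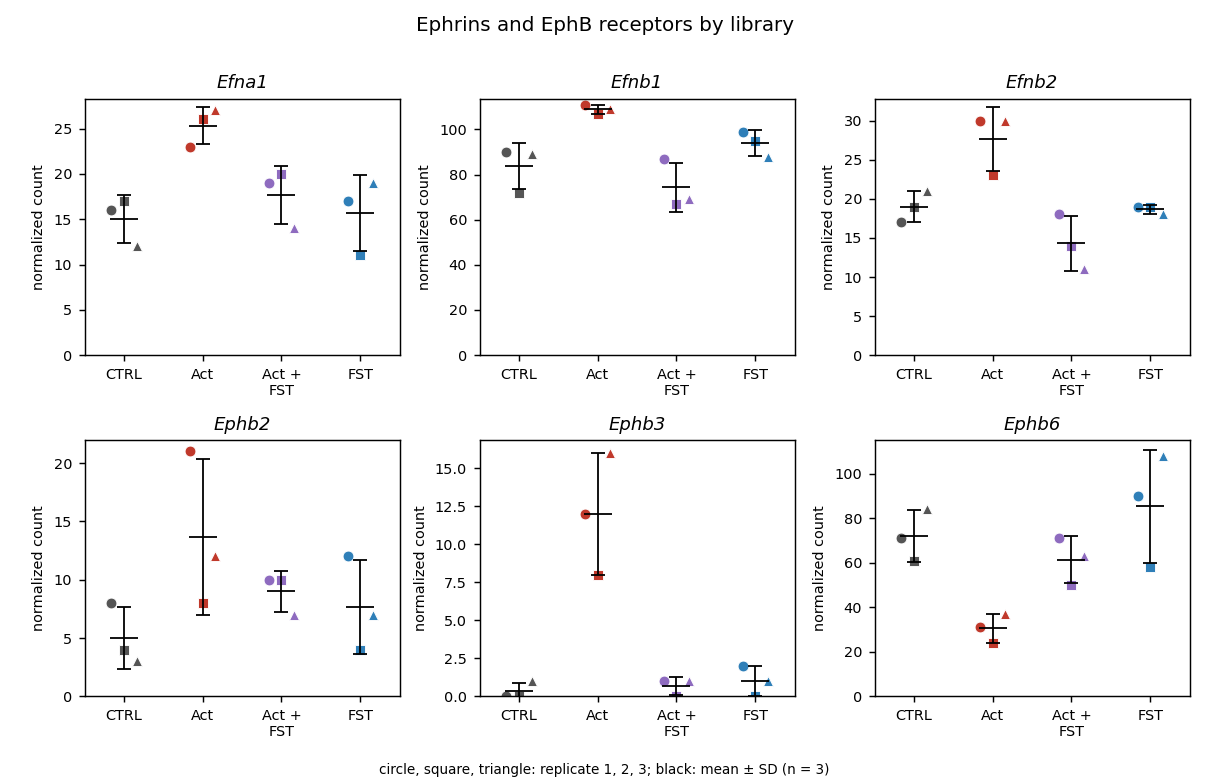
Normalized counts of *Efna1*, *Efnb1*, *Efnb2*, *Ephb2*, *Ephb3*, and *Ephb6* by library, on axes that start at 0, with the replicate given by the marker and the mean ± SD (n = 3) in black. *Efnb1*, *Efnb2*, and *Ephb3* are highest in the 3 Act libraries, *Ephb6* is lowest there, and *Ephb2* overlaps between groups.

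*Slit1* and *Dpysl2* were expressed and did not change detectably with activin A. *Slit1*, a secreted ligand of Robo receptors, had means of 598 ± 81.0 (CTRL) and 606 ± 41.0 (Act) normalized counts, with a log2 fold change of 0.03 and a 95% confidence interval of −0.17 to 0.22. Its relative *Slit2* held 0 to 3 normalized counts per library. *Dpysl2*, also called CRMP2, had 560 ± 35.9 with CTRL, 620 ± 51.6 with Act, 632 ± 46.4 with Act + FST, and 598 ± 5.86 with FST. Its log2 fold change against CTRL was 0.15 (interval −0.00 to 0.30, limma adjusted p = 0.17).

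Of 75 further genes of these pathways, listed as partners, 63 were tested, and 10 were higher and 7 lower in Act versus CTRL (11 and 7 in Act versus Act + FST). For comparison, 10.3% and 9.97% of all genes were called against CTRL and 11.1% and 10.2% against Act + FST. With the block, 16 were higher and 13 lower against CTRL (16.3% and 15.2% of all genes), adding *Adam10*, *Furin*, *Kalrn*, *Mical2*, *Rhod*, and *Srgap3* to the higher and *Evl*, *Kdr*, *L1cam*, *Rasa1*, *Rras*, and *Vav3* to the lower genes. Against Act + FST it called 18 higher and 11 lower (17.1% and 15.4%), adding *Ablim1*, *Furin*, *Limk1*, *Mical2*, *Myo10*, *Rnd1*, and *Vav2* to the higher and *L1cam*, *Rras*, *Tiam1*, and *Vav3* to the lower genes. The median log2 fold change of the 63 genes was 0.02 against CTRL. Among 16 tested ligands, receptors, and co-receptors outside the families above, *Flt1*, *Met*, *Rgmb*, and *Vegfa* were higher against CTRL and *Flrt2*, *Neo1*, *Nrcam*, and *Vegfb* lower. *Nrcam*, an adhesion protein that joins semaphorin receptors, fell from 203 ± 40.8 normalized counts (SD, n = 3) to 24.0 ± 12.3 (log2 fold change −3.17, limma adjusted p = 9.0e-05). *Met*, a receptor kinase that associates with B plexins, was higher by a log2 fold change of 1.07 (limma adjusted p = 0.0028). *Trem2* and *Tyrobp*, which form a receptor complex with plexin A1 in myeloid cells, had log2 fold changes of −0.01 (limma adjusted p = 0.84) and −0.07 (adjusted p = 0.47).

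Of 21 tested GEFs, GAPs, and adaptors, *Rnd1* was higher and *Nck2* and *Tiam1* were lower against CTRL. Of 21 kinases and cytoskeleton effectors, *Vasp*, *Limk1*, and *Mical3* were higher and *Fyn* was lower. *Vasp*, which promotes actin filament growth, had a log2 fold change of 0.49 (limma adjusted p = 6.3e-05). Of 5 proteases that cut guidance proteins, *Mmp14* and *Adam17* were higher. *Mmp14*, a membrane protease that sheds SEMA4D, went from a CTRL mean of 247 ± 81.7 normalized counts (SD, n = 3) to an Act mean of 1308 ± 33.5 (log2 fold change 2.45, limma adjusted p = 3.8e-06). *Adam17*, a sheddase, went from 1565 ± 109 to 1895 ± 112 (log2 fold change 0.28, adjusted p = 0.0040).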

How the data were processed

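RNA sequencing of 12 BMDM libraries was analysed from 1 table. Per the labels and the methods, single-end reads were trimmed by the authors (Trimmomatic 0.39), mapped to mm10 (STAR 2.7.9a), and counted per gene (featureCounts 2.0.2) unless they hit more than 1 gene or position. The deposited values are a normalized score, gene counts that were normalized between libraries and rounded, and whole reads were not recovered from them. The formula of the normalization and the strand setting are not given in the sources used here.

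Values were tested as log2(normalized count + 1) with limma 3.58.1 in R 4.3.3 (trend on the mean, two-sided) over the 14318 genes averaging 5 or more, with the 4 group means in 1 model. Higher or lower means p of at most 0.05 after Benjamini-Hochberg adjustment over all these genes, and a DEG also changed at least 2-fold, as in the study's thresholds. The study applied these thresholds with another test, DESeq2, so that its DEGs and their numbers are not those given here. Fold changes on this scale understate those of low genes. The depth before scaling is not shown by scaled totals, and counting error limits genes near the mean of 5 most. Exonic lengths and overlaps came from GENCODE M21 (GRCm38), which held all 46 genes at the coordinates of the table. The model was tested on simulated data.

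Libraries with the same replicate number in the labels deviated from their group means together (18 pairs, correlation across genes 0.157 to 0.481), so that the number was used as a block in an alternative fit. Guidance genes, partner and marker lists were chosen with earlier results of these data known. Named are genes that passed in a comparison with or without the block and the most abundant gene of each family. Other choices tried were pseudocounts of 0.5 and 5, no filter or a mean of at least 50, quantile normalization, recomputed TMM factors, only the 6 libraries compared, a 1.5-fold threshold, and leaving out each library.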

Additional observations from a re-analysis of the deposited data

Results flagged for a closer look

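The effect of activin A differed between cells without and with FST288 for 5 of the 34 tested guidance genes, by a limma test of the difference itself, (Act − CTRL) − (Act + FST − FST), with p adjusted over all 14318 genes. For *Ntn1* the log2 effect was −2.15 without and 0.11 with FST288, a difference of −2.26 ± 0.34 (SE, adjusted p = 0.0020). For *Ntn4* it was 1.45 and −0.78, a difference of 2.23 ± 0.57 (SE, adjusted p = 0.035). For *Sema4c* it was 0.98 and 0.14, a difference of 0.84 ± 0.14 (SE, adjusted p = 0.0037). For *Unc5a* it was −1.38 and −0.11, a difference of −1.27 ± 0.29 (SE, adjusted p = 0.022). For *Efnb1* it was 0.38 and −0.34, a difference of 0.73 ± 0.18 (SE, adjusted p = 0.029). Over all genes, 3.99% were called with a higher and 2.75% with a lower effect without FST288. Leaving out each library in turn, the call was lost in 9 of 12 fits for *Ntn4* (adjusted p up to 0.090), in 8 for *Efnb1* (up to 0.075), and in 2 for *Unc5a* (up to 0.063), and in 0 for *Ntn1* and *Sema4c*. With the replicate block, 10 guidance genes passed this test (9.36% and 6.96% of all genes), adding *Sema4a* (adjusted p = 0.0017 in place of 0.051), *Sema4d* (0.00066 in place of 0.052), *Sema4b* (0.038 in place of 0.14), *Plxna1* (0.0010 in place of 0.21), and *Ephb6* (0.017 in place of 0.22). Without the block, *Sema4a* passed without Act + FST replicate 2 (0.021), and *Sema4d* passed without CTRL replicate 1 (0.018) or Act + FST replicate 1 (0.041).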

How the results depend on the processing

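No named gene that passed the threshold changed direction under any alternative run. Of 2288 values of named genes under the alternatives, 2145 kept their direction and their side of the threshold. This total includes the comparisons of Act + FST and FST with CTRL, where no guidance gene was called. Leaving out a library in Act versus CTRL, 311 values stayed, 17 lost the call, 9 gained it, and 11 uncalled values changed sign. In Act versus Act + FST these were 330, 4, 4, and 10. With the replicate block, the genes called lower in Act were 7 against CTRL and 6 against Act + FST, in place of 4 and 3 (15.2% and 15.4% of all genes with the block). Genes whose activin A effect differed with FST288 were 10 in place of 5 (with the block, 9.36% of all genes higher and 6.96% lower). A mean of at least 50 left 5 genes higher and 2 DEGs in Act versus Act + FST, with 23 guidance genes tested. Of all 10634 genes at this level, 1358 were higher, and DEGs were 171 higher and 207 lower. A 1.5-fold threshold gave 7 DEGs in Act versus CTRL and 8 in Act versus Act + FST, in place of 4 and 4. Of all 14318 genes, it gave 593 higher and 691 lower DEGs against CTRL, and 620 and 680 against Act + FST. Leaving out each library in turn gave 3 to 7 higher and 4 to 6 lower genes and 3 to 6 DEGs in Act versus CTRL. Of all 14318 genes, these fits called 1075 to 1518 higher and 1010 to 1515 lower, with 298 to 380 higher and 371 to 453 lower DEGs. In Act versus Act + FST, leaving out a library gave 7 to 9 higher and 3 to 5 lower genes and 3 to 5 DEGs. Of all genes, 1227 to 1678 were higher and 1080 to 1494 lower there, with 335 to 422 higher and 381 to 477 lower DEGs. The number higher in Act versus CTRL was 3 without CTRL replicate 2 or Act replicate 1, and the number lower in Act versus Act + FST was 5 without Act + FST replicate 3. The number of genes whose activin A effect differed with FST288 ranged from 2 to 6, with 2 without FST replicate 2 and 3 without FST replicate 1, CTRL replicate 2 or 3, or Act replicate 1, 2, or 3. Over all genes, these fits called 371 to 656 with a higher and 255 to 425 with a lower effect without FST288. Act + FST versus CTRL and FST versus CTRL gave 0 under every alternative. Apart from the calls named beside each gene and partner gene and in the test of the activin A effect without and with FST288, the block changed no other call of a guidance or partner gene. Causes were not tested. Rounded values under 5 limit what could be seen for 12 of the 46 genes.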
